A study of Mus musculus with 6 samples.

Results

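The clustered protocadherins are cell surface proteins of the cadherin family, encoded by 3 gene clusters that lie one after another on mouse chromosome 18. Genes were taken by symbol, as every protein-coding gene of the GENCODE annotation on that chromosome named Pcdha, Pcdhb or Pcdhg followed by an isoform letter or number. The rule gave 57 genes of 21951 protein-coding genes, with 14 in the alpha cluster, 22 in the beta cluster and 21 in the gamma cluster. They carried 56 symbols, because the annotation gave the name Pcdha11 to 2 alpha genes. On the mm10 build the 57 genes covered 36930184 to 37841873 of chromosome 18, a stretch of 912 kb, and all were read on the plus strand.

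In the alpha and gamma clusters, each gene has its own promoter and its own large variable exon, which encodes the extracellular cadherin repeats, and these exons are spliced to constant exons shared by the cluster. Beta genes are single-exon genes without the shared constant exons. In neurons most of these promoters are known to be used in a stochastic choice, so that each cell shows its own combination of isoforms on its surface, and proteins on neighbouring cells bind when they match, which lets a neuron tell its own branches from those of others. The promoters of chosen isoforms carry active marks and bind CTCF and cohesin, while the last genes of the alpha and gamma clusters, the C-type isoforms, are chosen less randomly.

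Trimethylation of lysine 4 of histone H3 (H3K4me3), a mark of active promoters, was mapped by ChIP-Seq in STHdh cells, conditionally immortalised mouse striatal progenitor cells labelled as strain C57BL/6. Q7SST was the wild-type STHdhQ7 line, and Q111SST was the STHdhQ111 line, which is homozygous for a knocked-in huntingtin gene with an expanded glutamine tract. Both were kept in serum-free medium with vehicle for 24 h, and 4 further samples were STHdhQ111 cells kept the same way with 10 uM of cyproheptadine, loxapine, diacylglycerol kinase inhibitor II (DKI) or meclizine. Each of the 6 samples gave 1 peak list, and the samples called mutant below are Q111SST and the 4 compound samples. Each genotype was represented by 1 cell line, so that genotype and line cannot be told apart, and all 5 mutant lists came from the same line. Since no condition had a second list, no spread between replicates could be measured and no difference below carries a test.

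The lists held 30758 to 45564 peaks, with the fewest in DKI and the most in loxapine. The read depth behind them is unknown. A gene counted as marked if any annotated start of it had a peak at a distance of at most 1 kb. Strength is the percentile of the peak's score among all peaks of its own list, and the median over all marked promoters was between 76.3 and 83.0 in the 6 lists. The striatal progenitor label was compared with marker genes. The intermediate filament gene Vim was marked in all 6 lists, while the progenitor marker Nes had no peak in cyproheptadine and percentiles of 32.2 to 90.7 in the other lists, and Sox2, a neural stem cell factor, had none in Q7SST and 35.0 to 71.8 elsewhere. Of 11 striatal lineage genes, 5 were marked in all 6 lists (Dlx1, Dlx2, Dlx5, Meis2 and Foxp1), and Drd1, Drd2 and Isl1 were marked in none. Bcl11b and Gsx2 were marked in Q7SST alone, at percentiles 54.7 and 2.76. The progenitor gene Pax6 was marked in 4 lists at percentiles of 7.46 to 30.4, and Msi1 in 3 lists at 10.4 to 32.6. Ppp1r1b, a gene of striatal projection neurons, was marked in 4 lists at 15.9 to 49.1. Of 5 mature neuron genes, Map2, Tubb3 and Syt1 were marked in all 6 lists and Snap25 and Rbfox3 in none. The astrocyte gene Gfap was marked in the 5 mutant lists, at 32.6 to 54.7, and Aqp4 in none. The oligodendrocyte genes Olig2 and Mog were unmarked, and Mbp was marked in the meclizine list alone, at 4.43. None of 3 microglial and blood genes or 2 endothelial genes was marked. The fibroblast genes Col1a1 and Pdgfra were marked in all 6 lists, and Col1a2 was marked in every list but Q7SST, at 48.9 to 70.2. The part of cell identity in the results below was not tested.

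Most clustered protocadherin promoters carried no H3K4me3 peak in these cells. In Q7SST, 15 of the 57 genes were marked (26.3%), beside 59.9% of all protein-coding genes. In Q111SST, 10 were marked (17.5%), beside 58.3%. The compound lists held 7 marked members with cyproheptadine, beside 55.3% of all genes, 10 with loxapine, beside 58.1%, 9 with DKI, beside 55.7%, and 10 with meclizine, beside 58.6%. With scores of 47 or more alone, the counts were 8 in Q7SST, 7 in Q111SST, and 4, 7, 3 and 8 with cyproheptadine, loxapine, DKI and meclizine, so that the wild-type list held as many as meclizine. With a window of 5 kb they were 21, 17, 12, 16, 13 and 14 in the same order. On the same chromosome, 301 to 331 of 513 protein-coding genes, members included, were marked in each list. The share of members was thus below the share of all genes in each of the 6 lists. In a population of cells, a weak peak cannot be told apart from a peak carried by a few of the cells.

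**Figure D1:**
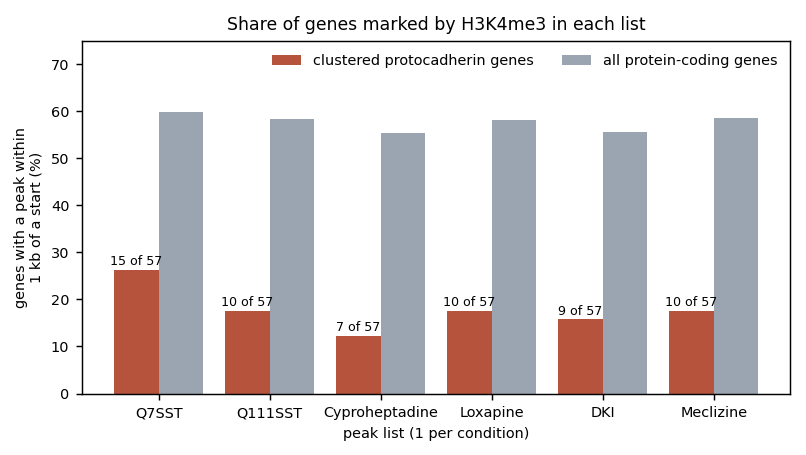
Share of genes with an H3K4me3 peak within 1 kb of an annotated start (vertical axis, percent) in each of the 6 peak lists (horizontal axis), for the 57 clustered protocadherin genes and for all 21951 protein-coding genes. The member bars lie between 12.3% and 26.3%, and the bars for all genes lie between 55.3% and 59.9%.

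Across the 6 lists, 19 members were marked in at least 1 list and 38 in none, so that the unmarked members were 38 of 57, beside 37.1% of all genes. Marked in all 6 lists were 5 members, beside 53.4% of all genes. The 5 members were Pcdhb17 and Pcdhb21 of the beta cluster and Pcdhga1, Pcdhgc3 and Pcdhgc5 of the gamma cluster. Their count was 0 with scores of 47 or more alone, 3 with a peak required over a start and 12 with a window of 5 kb. The 53.4% of all genes holds for the 1 kb window with all scores, and cannot be set beside these 3 counts. The remaining 14 were marked in some lists, and 8 of them in exactly 1 list, which was Q7SST each time.

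The clusters differed in how much of them was marked. Unmarked in all 6 lists were 13 of 14 alpha, 15 of 22 beta and 10 of 21 gamma genes, beside 37.1% of all genes. The gamma cluster was thus nearest to all genes. In the alpha cluster 13 of 14 promoters had no peak in any list, and the exception was Pcdhac2, a C-type isoform needed for the even spacing of serotonergic axons, marked in Q7SST with a score at percentile 6.14. The other alpha C-type gene, Pcdhac1, was unmarked, and its nearest peak lay between 53381 and 286981 bp away. In the beta cluster 7 of 22 genes were marked in at least 1 list. Of these, 6 were among the last 7 genes of the cluster, Pcdhb16 to Pcdhb22, and the other was Pcdhb5. In the gamma cluster 11 of 21 genes were marked in at least 1 list, spread from Pcdhga1, the first, to Pcdhgc5, the last.

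**Figure D2:**
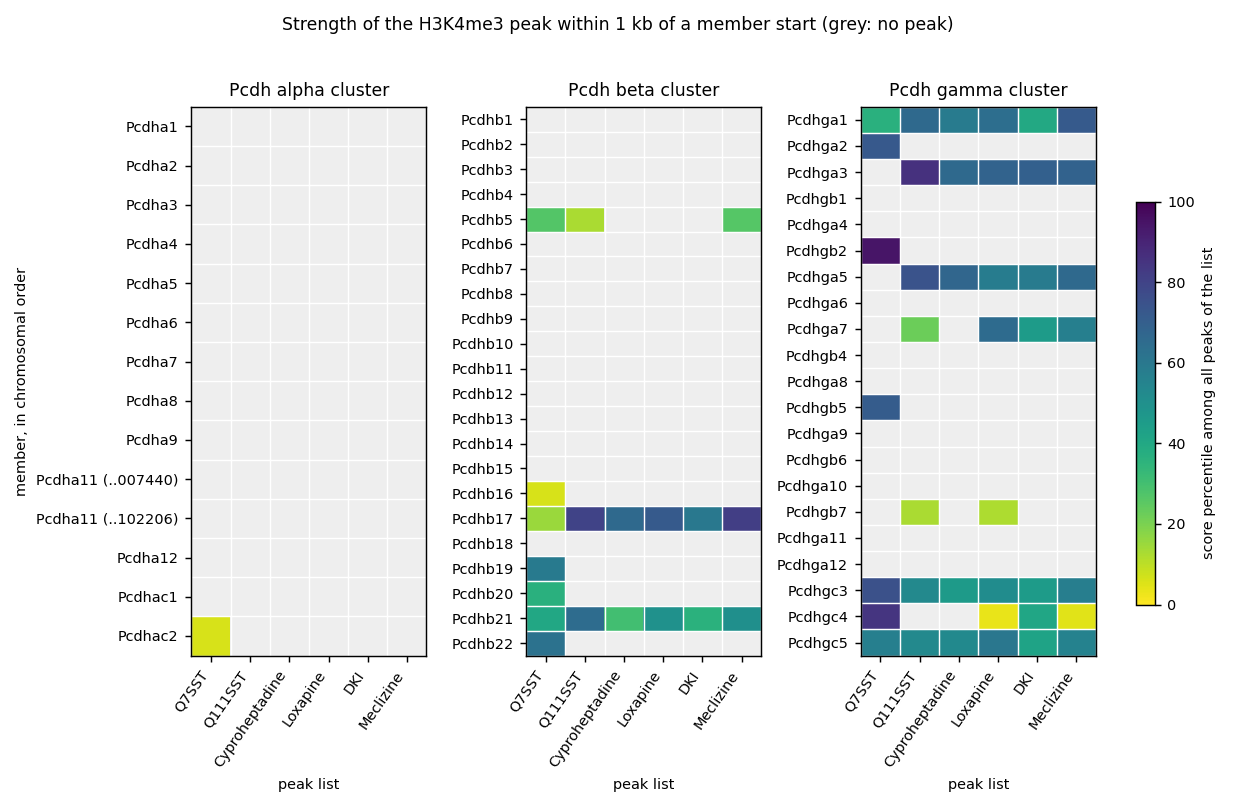
Strength of the H3K4me3 peak at each of the 57 members, as the percentile of its score among all peaks of the same list (colour scale, 0 to 100), with members in chromosomal order down each panel and the 6 peak lists along the bottom. Grey cells have no peak within 1 kb, and coloured cells appear at 1 of 14 alpha genes, 7 of 22 beta genes and 11 of 21 gamma genes.

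Marked members carried peaks of middling strength that were short for a promoter. The median percentile of marked members was 56.7 and 58.9 in the vehicle lists Q7SST and Q111SST, and 58.5, 59.1, 45.1 and 57.0 in the cyproheptadine, loxapine, DKI and meclizine lists. In each list this was below the median over all marked promoters. Members above that median numbered 2 in Q7SST (Pcdhgb2 and Pcdhgc4), 1 in Q111SST (Pcdhga3) and 1 with meclizine (Pcdhb17), and 0 in the other lists. The median width of member peaks was 394 bp with DKI to 703 bp with loxapine, where the peaks of all marked promoters had medians of 1350 bp with DKI to 1662 bp in Q111SST.

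Most peaks lay mainly on exons of the members, downstream of the starts, with exceptions at C-type genes. There were 61 peaks at the 19 marked members over the 6 lists, and no peak was shared by 2 members. Of these, 46 (75.4%) covered the 5′ end of the gene and 56 reached further downstream than upstream of it. Peak positions are not given for all marked promoters, so members are not set apart from other genes by them. For the 15 marked members other than C-type genes, all 44 peaks reached further downstream, with median positions relative to the 5′ end of -25 bp for the left edge and 456 bp for the right edge, and a median of 95.1% of the peak lay in exons of member genes. The 17 peaks at C-type genes were wider, with a median of 738 bp, and a median of 60.4% of the peak in exons. The 5 peaks with less than 50% in exons were those of Pcdhgc4, at 22.1% in Q7SST and 0% in the loxapine, DKI and meclizine lists, and that of Pcdhgc5 in Q111SST, at 46.4%. The 1 kb limit did not divide close cases. The peak farthest from the 5′ end of a member it marked was that of Pcdhb22 in Q7SST, at 422 bp, over a second annotated start of that gene, and the nearest peak to any unmarked member was 3682 bp away, at the same gene in Q111SST.

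**Figure D3:**
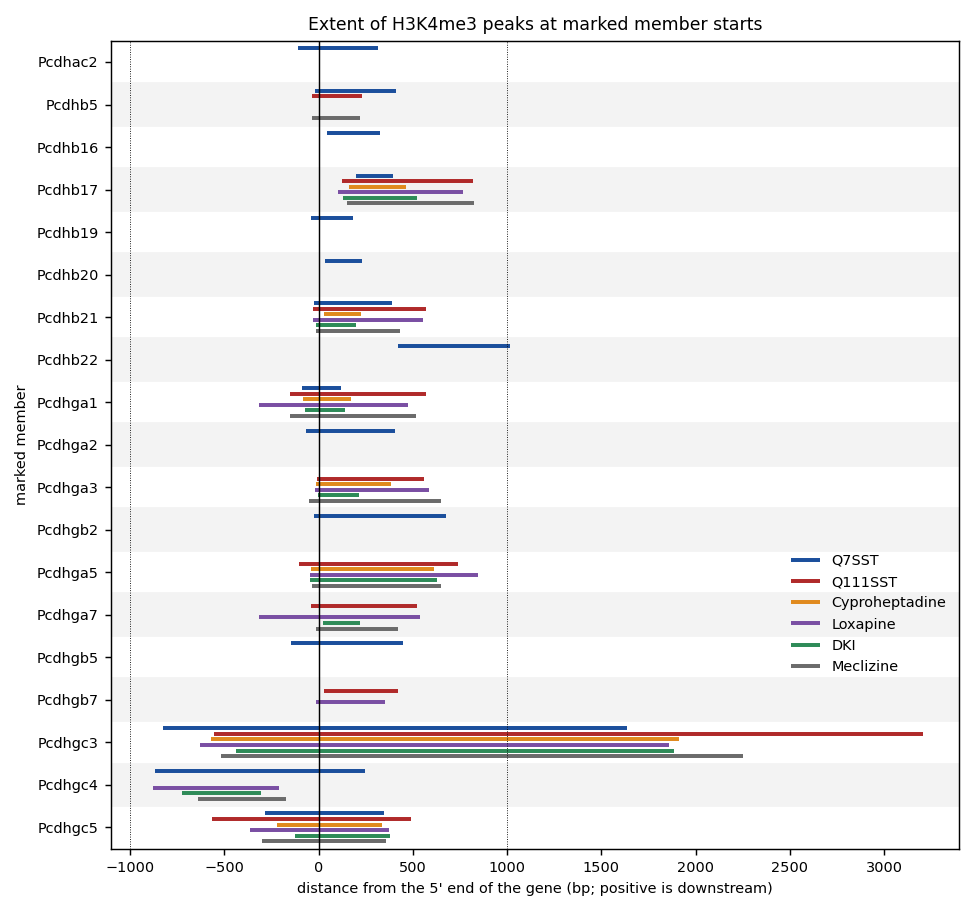
Extent of each H3K4me3 peak at the 19 marked members, as distance from the 5′ end of the gene (horizontal axis, bp, positive downstream), with 1 bar per peak list coloured by list and dotted lines at 1 kb either side. Most bars begin near 0 and run downstream, those of Pcdhb17 begin 103 to 199 bp downstream, and those of Pcdhgc3 are the widest, at 2327 to 3765 bp.

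The 5 members marked in every list included a pair of C-type gamma genes. Pcdhgc3, an isoform that promotes dendrite branching in cortical neurons, starts at 37806364 of chromosome 18. Its percentile was 75.3 in Q7SST and 53.1 in Q111SST, and it was 45.4, 51.2, 45.1 and 57.3 with cyproheptadine, loxapine, DKI and meclizine, so that the wild-type line was highest. Its peak was the widest of any member, 2462 bp in Q7SST, 3765 bp in Q111SST, and 2488, 2490, 2327 and 2772 bp with cyproheptadine, loxapine, DKI and meclizine. The antisense gene BC037039 also has an annotated start within 1 kb of that region, as the antisense gene Gm37118 has at Pcdhga1, and peaks there cannot be divided between such pairs. Pcdhgc5, an isoform known to bind GABA receptors of type A, starts at 37819513. It was the most even member, with percentiles of 56.7, 53.1, 52.5, 60.2, 41.9 and 55.5 in Q7SST, Q111SST, cyproheptadine, loxapine, DKI and meclizine.

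The other 3 were stronger in most mutant lists than in the wild-type list. Pcdhb17, which starts at 37484795, had percentile 15.1 in Q7SST and 80.1 in Q111SST, and then 65.8, 71.7, 59.9 and 81.5 with cyproheptadine, loxapine, DKI and meclizine. All 5 mutant values thus lay above the wild-type value. None of its 6 peaks covered the start, and each began 103 to 199 bp downstream, inside the single exon. Pcdhga1, which starts at 37661793 and is the first gamma gene, had percentile 36.5 in Q7SST. It had 65.6, 58.5, 63.9, 39.7 and 71.8 in the mutant lists in the same order, again with the wild-type percentile lowest. By score DKI was lowest, at 36 beside 37 in Q7SST, so the order of this pair depended on the use of percentiles. Pcdhb21, which starts at 37513621, did not have its lowest percentile in Q7SST. Its percentiles were 40.1 in Q7SST, 64.7 in Q111SST, and 30.5, 49.5, 36.1 and 50.1 with the compounds in the same order, and the wild-type value fell within the range of the mutant lists.

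Comparing the lines under vehicle asks which promoters of this family were marked in wild-type and in mutant cells. The lists marked largely different members. Of 19 members marked in either vehicle list, 6 were marked in both, 9 in Q7SST alone, beside 3.59% of all genes, and 4 in Q111SST alone, beside 2.08% of all genes. Members marked in 1 of the 2 lists were thus 13 of 57 (22.8%), beside 5.67% of all genes. Among genes marked in either vehicle list, 68.4% of members and 9.15% of all genes were marked in only 1 of them.

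Weak peaks are more often found in 1 list only, so the same share was read by strength. Genes were grouped by the percentile of their stronger vehicle peak. Between percentiles 50 and 75, 5 of 8 members and 9.93% of 2950 genes were marked in 1 list only. Above percentile 75 this held for 3 of 5 members and 1.05% of 9239 genes. Between 25 and 50 it held for 1 of 2 members and 47.7% of genes, and below 25 for 4 of 4 members and 83.2% of genes. Of the 13 line differences, 8 were at peaks above percentile 50, with 5 between 50 and 75 and 3 above 75. The median over all marked promoters was higher than most of these, at 80.4 in Q7SST and 82.6 in Q111SST. A member marked in 1 list entered its group through that list alone. The part of peak strength in the line differences was not tested.

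The strongest wild-type peaks were at gamma genes. Pcdhgb2, which starts at 37689828, had the highest percentile of any member in any list, 94.5 in Q7SST, and no peak in the 5 mutant lists, whose nearest peaks lay 4451 to 4519 bp away. Pcdhga2 had percentile 72.3 and Pcdhgb5 71.1 in Q7SST, and the nearest peak of any mutant list lay 5302 bp or farther from both. Pcdhgc4, the isoform whose loss alone is known to cause the neuronal death and early lethality of gamma cluster mutants, starts at 37815079 and had percentile 84.4 in Q7SST and no peak in Q111SST. Its wild-type peak was 1114 bp wide, covered the start and ended 245 bp downstream of it.

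Among beta genes, Pcdhb22 had percentile 62.5, Pcdhb19 59.1, Pcdhb20 36.5 and Pcdhb16 6.14 in Q7SST, and none was marked in a mutant list. These peaks alternate with the shared ones at Pcdhb17 and Pcdhb21 near the end of the cluster. With Pcdhac2, Pcdhga2, Pcdhgb2 and Pcdhgb5 they made 8 members marked in Q7SST and in no mutant list, beside 2.78% of all genes. Pcdhgc4, the other of the 9, was marked again in 3 compound lists.

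Of the 4 members marked in Q111SST alone, 2 were marked in all 5 mutant lists and not in Q7SST, beside 0.934% of all genes. Pcdhga3, which starts at 37674307, had percentile 85.7 in Q111SST, the highest of any member in that list, and 65.8, 68.0, 69.2 and 68.7 with cyproheptadine, loxapine, DKI and meclizine. Pcdhga5, which starts at 37694380, had 74.3 in Q111SST and 67.1, 58.1, 58.3 and 65.7 in the same order. In both cases Q111SST was highest, and the nearest peak in Q7SST lay 4949 bp from Pcdhga3 and 3878 bp from Pcdhga5.

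Both others were weak in Q111SST. Pcdhga7 had percentile 22.4 there and 65.1, 45.1 and 56.7 in the loxapine, DKI and meclizine lists, but no peak in Q7SST or with cyproheptadine. Pcdhgb7 had 12.9 in Q111SST and 12.3 with loxapine, and no peak in the other 4 lists. Along the gamma cluster, promoters of the lines lay among each other. After the shared Pcdhga1 came Pcdhga2 in the wild-type line, Pcdhga3 in the mutant line, Pcdhgb2 in the wild-type line, Pcdhga5 and Pcdhga7 in the mutant line, Pcdhgb5 in the wild-type line and Pcdhgb7 in the mutant line.

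Comparing each compound with the mutant vehicle asks whether treatment changed which members were marked. All 4 comparisons share the Q111SST list. Cyproheptadine gained 0 members, beside 0.305% of all genes, and lost 3 of 57 (5.26%), beside 3.33%. These were Pcdhb5, Pcdhga7 and Pcdhgb7. Loxapine, grouped with cyproheptadine in the study's Group A by metabolite profiles, gained Pcdhgc4 (1.75% of members), beside 1.01% of all genes, and lost Pcdhb5 (1.75%), beside 1.24%. DKI gained Pcdhgc4 (1.75%), beside 0.269%, and lost Pcdhb5 and Pcdhgb7 (3.51%), beside 2.89%. Meclizine, grouped with DKI in Group B, gained Pcdhgc4 (1.75%), beside 1.02%, and lost Pcdhgb7 (1.75%), beside 0.797%. With 0 to 3 genes in each count, 1 gene moves a share of members by 1.75 percentage points.

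The members lost were those with the weakest peaks in Q111SST. Pcdhb5 and Pcdhgb7 each stood at percentile 12.9 and Pcdhga7 at 22.4, and the other 7 members marked in Q111SST, at percentile 53.1 or above, kept a peak with every compound. Pcdhb5 had percentile 26.8 in Q7SST and 26.3 with meclizine. The peaks gained at Pcdhgc4 overlapped the peak of the wild-type line but were weaker and shorter. With loxapine the peak stood at percentile 3.40, with DKI at 40.8 and with meclizine at 4.43, against 84.4 in Q7SST. It was 668, 421 and 470 bp wide and ended 211, 305 and 172 bp upstream of the start with loxapine, DKI and meclizine, whereas the wild-type peak was 1114 bp wide and covered the start. With every list cut to its 30758 highest peaks, the length of the shortest, Pcdhb5, Pcdhga7 and Pcdhgb7 left the Q111SST list too, so that these losses could not be counted. In the same setting Pcdhgc4 left the loxapine and meclizine lists, which then gained other members, Pcdhga7 with loxapine and Pcdhb5 and Pcdhga7 with meclizine. With a peak required over a start, or a score of 47 or more, Pcdhgc4 was marked in none of the compound lists. With a window of 5 kb it was marked in all 6 lists. In Q111SST and with cyproheptadine the nearest peak was that of the neighbouring Pcdhgc5, 3869 and 4212 bp from its start.

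Of the 9 members marked in Q7SST and not in Q111SST, Pcdhgc4 was the one marked with a compound. Of the 10 members marked in Q111SST, 6 had their peak overlapped by one in Q7SST (60.0%), where 96.4% of all genes marked in Q111SST were marked in Q7SST too. With cyproheptadine 7 were overlapped (70.0%), beside 94.3% of all genes marked in Q111SST, and with DKI 8 (80.0%), beside 95%. Loxapine and meclizine each had 9 (90.0%), beside 97.9% and 98.6%. The shares of all genes count genes marked in both lists, and counted by gene the shares of members were the same as by peak. With a reciprocal overlap of 50% required, 4 were found in Q7SST, 4 with cyproheptadine, 3 with DKI and 9 with loxapine and with meclizine, so that the order of the first 3 did not hold. No share over all promoter peaks is given at that overlap, so these counts cannot be set against a background.

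The sequences around member starts were compared by their CpG and GC content, since H3K4me3 is typical of promoters rich in CpG. Letters were counted within 500 bp either side of each 5′ end, on the mm10 genome. The CpG ratio, the observed number of CpG over that expected from the C and G content, had a median of 0.564 in members, 0.71 in all genes marked in any list and 0.191 in all genes marked in none. Alpha genes had a median of 0.682, gamma genes 0.594 and beta genes 0.378. The least marked cluster was thus the one with the highest CpG ratio. By median CpG count the order was the same, at 35.5 in alpha, 33 in gamma and 15 in beta genes. Median GC content was 45.4% in alpha, 47.1% in gamma and 41.3% in beta genes. Members together had a median of 30 CpG and 44.9% GC. All genes marked in any list had 60 CpG and 58.3% GC, and those marked in none 10 CpG and 46.6% GC. The GC content of members was thus near that of unmarked genes, and their CpG count lay between both groups.

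Marked and unmarked members had close medians over the 3 clusters together, 0.564 in the 19 marked members and 0.557 in the 38 unmarked ones, but these mix clusters of different CpG ratio. Among beta genes the 7 marked ones had a lower median of 0.24, with a range of 0.211 to 0.457, and the 15 unmarked ones 0.407, with an overlapping range of 0.158 to 0.519. The marked beta genes Pcdhb22, Pcdhb16, Pcdhb19, Pcdhb21 and Pcdhb20 lay at 0.299 or below. Alpha genes allow no such comparison with 1 marked, and among gamma genes the medians were 0.594 for the 11 marked and 0.621 for the 10 unmarked. Of 4711 genes with a CpG ratio in the range of the alpha cluster, 0.564 to 0.749, 89.4% were marked in at least 1 list, beside 1 of 14 alpha genes. In the range of the beta cluster 41.3% of 6738 genes were marked, beside 31.8% of the beta genes, and in that of the gamma cluster 76.7% of 13416 genes, beside 52.4% of the gamma genes.

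**Figure D4:**
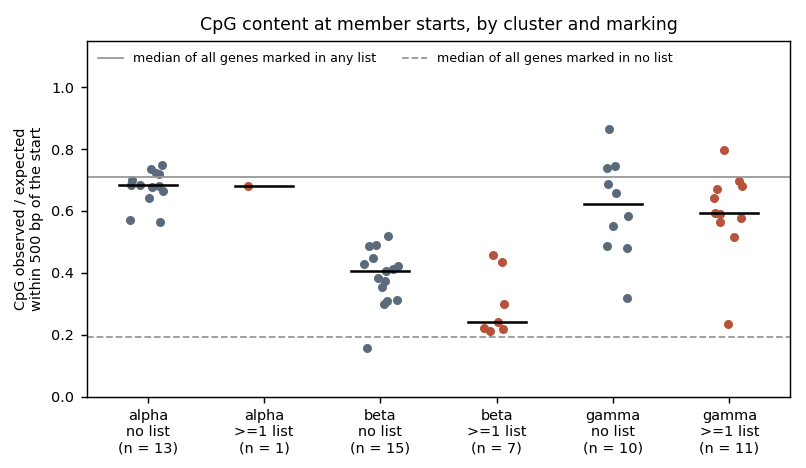
CpG ratio, observed over expected, within 500 bp of the 5′ end of each of the 57 members (vertical axis), split by cluster and by whether the gene was marked in at least 1 list (horizontal axis), with 1 point per gene, black bars at group medians and horizontal lines at the medians of all genes marked in any list (0.71) and in none (0.191). The 13 unmarked alpha genes lie between 0.564 and 0.749, and 5 of the 7 marked beta genes lie below the median of unmarked ones.

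The letters CGCT, the core of the conserved sequence element that most of these promoters are known to share, were searched on both strands in the same windows. They occurred at all 57 members, marked or not, and at 85.9% of all genes. The 4 letters do not set members apart on their own, since 96.8% of all genes marked in any list and 67.3% of those marked in none held them too. Members resemble one another in sequence, which can leave short reads without a unique place. Runs of 50 bases within 1 kb of the start that recur elsewhere in the genome were found at 28 of 38 unmarked members and 4 of 19 marked ones. The median share of such runs was 5.45% for unmarked members, with a maximum of 19.9% at Pcdha7, and 0% for marked ones, with a maximum of 6.40% at Pcdhgb5. The part of repeated sequence in the missing peaks was not tested.

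Genes that act on or with the clusters were marked throughout. All 16 known regulators were marked in each of the 6 lists, beside 53.4% of all genes, among them Ctcf, which encodes the factor that loops chosen promoters to distant enhancers, at percentile 78.7 in Q7SST and 90.7 in Q111SST, and the cohesin gene Rad21, at 99.5 and 98.2. Dnmt3b, which methylates promoters that are not chosen, was at 57.9 and 60.2. All 6 partners of the proteins were also marked in each list, including the kinase genes Ptk2 and Ptk2b, whose products are held in check by clustered protocadherins.

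Of the 12 protocadherin genes outside the clusters, 9 were marked in Q7SST, 8 in Q111SST, and 7, 8, 6 and 7 with cyproheptadine, loxapine, DKI and meclizine, beside 55.3% to 59.9% of all genes over the lists. Of these, 6 were marked in all 6 lists and 2 in none, Pcdh20 and Pcdh11x. Pcdh15, a component of the tip link of hair cells, and Pcdh8 were marked in Q7SST alone, at percentiles 43.4 and 40.1. Pcdh9 stood at 46.4 in Q7SST, 6.76 in Q111SST, 12.3 with loxapine and 5.91 with meclizine, and had no peak in the other 2 lists. Pcdh12 was unmarked in Q7SST, DKI and meclizine and stood at 36.8 in Q111SST, 40.6 with cyproheptadine and 74.4 with loxapine.

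Presence of a peak at the genes around the clusters differed little between the lists, though strength did at some. Of 33 other protein-coding genes with a start inside the stretch or within 500 kb of it, 22 were marked in all 6 lists, beside 53.4% of all genes, and 10 in none, beside 37.1%, and the remaining one was Pcdh12. Taf7, which encodes a subunit of the general transcription factor TFIID and lies between the beta and gamma clusters, stood at percentiles 89.5 to 97.9 over the 6 lists. Of those marked in all lists, 3 are given after their values were seen, since they differed in strength. Cd14, which encodes a receptor for bacterial lipopolysaccharide, stood at 50.0 in Q7SST and 92.04 in Q111SST, and Diaph1, an actin-nucleating formin gene, at 68.6 and 85.4. Pcdh1 differed the other way, at 56.7 and 39.4. Slc25a2, a mitochondrial carrier gene in the same interval, was unmarked in every list, as were Arap3, Slc4a9, Dnd1, Eif4ebp3, E230025N22Rik, AC115631.1, Gm37013, Gm37388 and Gm42416.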

How the data were processed

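H3K4me3 ChIP-Seq was performed on 6 samples, 1 per condition, grouped by their labels. Chromatin was digested with micrococcal nuclease and sequenced as single-end reads. The submitters' processing notes name Trimmomatic 0.36, Bowtie2, SAMtools 1.3, MACS2 and mm10, without thresholds or input control. Each deposited peak has coordinates and a whole-number score set by the authors, whose lowest value was 10 in each list and whose scale is not given in the sources used here. Scores were therefore used as percentiles within a list. Treatment was in triplicate by the design text, but whether replicates were pooled is not stated. Read totals were not used here, so depth is unknown, and a shorter list can hold fewer weak peaks.

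No chromosome of 21 had a peak past its end on GRCm38, the assembly of mm10. Genes were GENCODE vM21 protein-coding gene identifiers. A gene was marked when any base of a peak lay within 1 kb of an annotated start, and its strength was that of its strongest peak. Peaks were shared at an overlap of at least 1 bp. Counts of members were set beside those of all genes. No test was made, since each condition has 1 list. Steps were tested on simulated data. Python 3.11.15, numpy 2.4.6, pandas 2.3.3 and scipy 1.17.1 were used.

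The members and gene lists were chosen with earlier results of these data known. Named with values were members marked in some but not all lists, those marked in all 6, C-type members, and genes of the other lists not marked in all 6. Ctcf, Rad21, Dnmt3b, Taf7, Cd14, Diaph1, Pcdh1 and the markers present in all 6 lists fall outside this rule and were named after their values were seen. The alternatives tried were a stricter score, other windows, 1 start per gene, lists of equal size, peak centres and reciprocal overlap. Sequences on chromosome 18 and 1 gene of the marker lists are not reported here.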

Additional observations from a re-analysis of the deposited data

How the results depend on the processing

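Of 118 values recomputed under another setting, 82 moved by less than 1.5 times or by less than their interval and 36 moved more. With only peaks at or above score 47, the median of all lists pooled, 8 members were marked in Q7SST, 4 with cyproheptadine and 3 with DKI, and 0 in all 6 lists. DKI then gained 0 and lost 4 members and meclizine lost 0. The share of Q111SST member peaks found was 28.6% in Q7SST, 42.9% with DKI and 100% with meclizine. This threshold is 1 score for lists whose scales may differ. With a peak required to cover a start, 3 members were marked in all 6 lists, DKI gained 0 and lost 1, and meclizine gained 0 and lost 0. With a window of 5 kb, which can take in the neighbouring promoter since median gaps between starts were 5345 to 7781 bp, 17 members were marked in Q111SST, 12 with cyproheptadine and 16 with loxapine, and 12 in all 6 lists. Cyproheptadine then lost 5, loxapine gained 0, DKI gained 0 and lost 4, and meclizine gained 0 and lost 3. With each list cut to its 30758 highest peaks, cyproheptadine lost 0, loxapine lost 0, DKI gained 2 and lost 0, and meclizine gained 2 and lost 0, the weakest member peaks of Q111SST having left that list as well. With the peak centre in the window, cyproheptadine gained 1 member, and loxapine, DKI and meclizine gained 2 each. The added gain in each was Pcdhgc3, because the centre of its 3765 bp peak in Q111SST lay outside the window and Pcdhgc3 left that list. With a reciprocal overlap of 50%, the share of Q111SST member peaks found was 30.0% with DKI, and 40.0% in Q7SST and with cyproheptadine. The cause of the other moves was not tested. With 1 start per gene, 0 of 18 values moved.

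The 13 line differences were followed in every setting that changes which genes are marked, so not with reciprocal overlap. Of the 13, 3 held the same way in all of these settings (Pcdhb19, Pcdhga2 and Pcdhgb5), and 8 in all but the window of 5 kb. With lists of equal size 9 held, and Pcdhac2, Pcdhb16, Pcdhga7 and Pcdhgb7 were marked in neither vehicle list. No paired analysis was possible because a condition is represented by 1 list and the labels give no replicate numbers.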

Other observations

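Between the first start and the last end of the clusters, the peaks of the 6 lists merged into 27 regions, of which 19 lay at member starts and 8 did not. Of the 8, 6 lay within 1 kb of another annotated start and 2 near none. One lay at Pcdhgb8, a gamma gene annotated as a polymorphic pseudogene and so not counted among the 57, chosen here after its values were seen. Its percentile was 89.1 in Q7SST and 92.6 in Q111SST, and it was 80.0, 89.4, 86.2 and 97.3 with cyproheptadine, loxapine, DKI and meclizine. In each of the 5 mutant lists this was above every marked member, and in Q7SST it was above every marked member but Pcdhgb2. The peak covered the annotated start, 37761801 of chromosome 18, in Q7SST alone, and its right edge lay at -178 to -98 bp from that start in the 5 mutant lists.

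Of the regions near no annotated start, chosen for description after their values were seen, one lay at 37149043 to 37149709, past the last alpha start and inside the alpha gene bodies. It had percentile 80.8 in Q7SST, 38.1 in Q111SST, and 10.4, 13.2 and 21.8 with loxapine, DKI and meclizine, and no peak with cyproheptadine. The other lay at 37835167 to 37836451, inside the gamma gene bodies, with percentile 42.4 in Q7SST, 40.6 in Q111SST, 17.7 with loxapine and 44.7 with meclizine. A region at 37824788 to 37825883, past the last gamma start and near the annotated start of Gm38182, had peaks in all 6 lists, at percentiles 58.5, 25.9, 5.78, 24.3, 4.19 and 31.5 in Q7SST, Q111SST, cyproheptadine, loxapine, DKI and meclizine. At these regions the wild-type list was highest except at 37835167 to 37836451, where meclizine was.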
